A study of Mus musculus with 4 samples.

Results

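Principal 14 is the smallest of the 4 principal cell populations that were made up almost wholly of vas deferens cells in the deposited cell annotation. Populations in which at least 98% of cells came from the vas deferens library were taken, and the one with the fewest cells was kept. It held 139 of 8880 cells, all 139 from the vas deferens library. The other 3 were principal 12 with 346 cells (98.8% vas deferens), principal 13 with 400 cells (99% vas deferens) and principal 15 with 332 cells (100% vas deferens). The next population in that order, a vas deferens stromal one, stood at 94.2% and is not a principal cell population. The annotation holds 34 populations in all.

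In the study, FVB/NJ male mice aged 10 to 12 weeks were used, and 8 epididymides of 4 animals were cut by region into vas deferens, cauda, corpus and caput, depleted of sperm, and pooled into 1 single-cell library per region. The labels give no treatment or transgene for the animals. Because each region was 1 pooled library, no value below has a replicate, cells of 1 library were not treated as replicates, and no test between populations was run. The populations were built by clustering these same genes, so differences between them are descriptions. Levels are unique molecular identifiers (UMIs) of a gene summed over the cells of a population per 1000000 UMIs of that population (UPM). Since each transcript is counted once near its 3′ end, UPM are not scaled by gene length. Intervals in parentheses are 95% and cover counting error only.

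The vas deferens carries sperm from the cauda epididymidis toward the urethra. Its inner epithelium of tall principal cells secretes proteins into the lumen and moves ions and water, and it is wrapped in a thick coat of smooth muscle. Its principal cells are known for *Akr1b7*, an aldo-keto reductase induced by androgens and long known as the mouse vas deferens protein. *Abcg2* encodes an efflux transporter of the apical membrane, and prostaglandin synthesis is another known feature of this epithelium.

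Principal 14 held the defining genes of its label as a vas deferens principal population. The populations were built by clustering these same genes, so their presence is not independent evidence of the label. Muscle, used here as a background, does not tell vas deferens from epididymal principal cells. All 139 cells held at least 1 *Akr1b7* UMI. After thinning every cell to 1000 UMIs, which left out 49 cells, *Akr1b7* was found in 90 of 90 cells of principal 14 (96.0 to 100%) against 7.86% of 140 cells of the larger muscle population by cell number, in which it served as a background. Without thinning, the muscle share was 6.87%, at a median of 1080.5 UMIs per cell in muscle and 1474 in principal 14. *Abcg2* was found in 94.4% of the thinned cells and *Crisp1* in 100%, against 2.86% and 11.4% in muscle. The 15 vas deferens principal genes that the study names made up 9.66% of the UMIs of principal 14 and 0.163% in the muscle population. The study chose that list, which includes *Akr1b7* and *Abcg2*, on these same cells, so its level is not independent evidence of the label. *Crisp1* is one of the epididymal principal genes that the study names. The 15 general epithelial markers, among them *Epcam*, *Krt8*, *Krt18* and *Cldn7*, made up 0.677% of UMIs (0.654 to 0.700) against 0.631% to 0.765% in the other 3 populations.

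The upstream sequences of a pair of genes are shown because *Akr1b7* is the marker of the population and its first gene by level, and *Crisp1* is the second. Each is the 250 bases that precede the annotated start in RefSeq, GRCm38.p6, written in the direction of transcription. The region of *Akr1b7* is chr6:34412112-34412361 on the plus strand, with the gene at chr6:34412362-34423137. The region of *Crisp1* is chr17:40319208-40319457 on the minus strand, with the gene at chr17:40293758-40319207. Capitals mark TGTTCT or its reverse complement AGAACA, a half-site found in steroid hormone response elements, searched on both strands.
Akr1b7: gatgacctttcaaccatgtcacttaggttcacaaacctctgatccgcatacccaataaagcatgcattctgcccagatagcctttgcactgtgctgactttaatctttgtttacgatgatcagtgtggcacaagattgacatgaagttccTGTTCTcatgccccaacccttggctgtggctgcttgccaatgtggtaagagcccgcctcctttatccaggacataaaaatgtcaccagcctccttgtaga
Crisp1: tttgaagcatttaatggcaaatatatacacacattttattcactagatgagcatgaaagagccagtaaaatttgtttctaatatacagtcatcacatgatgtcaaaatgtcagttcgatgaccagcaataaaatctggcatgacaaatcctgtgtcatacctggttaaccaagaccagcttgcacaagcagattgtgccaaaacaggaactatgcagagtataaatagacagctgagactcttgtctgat
The letters were found once for *Akr1b7*, starting 100 bases before the start, and 0 times for *Crisp1*. They occur in 16.1% of all 32851 promoter windows of that length, and in 4 of the 21 windows (19.0%) that belong to 14 of the 15 vas deferens principal genes, namely those of *Akr1b7*, *Aqp2*, *Prlr* and *Ptges*. The match is a description of the letters in the window.

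*Akr1b7* ranked first of 16892 genes in principal 14. Its level was 70894 UPM in principal 14 (70139 to 71656), 32958 in principal 12, 49736 in principal 13 and 96185 in principal 15. Principal 14 thus stood second of the 4, at 0.737 times the level of principal 15 (0.728 to 0.747). The ratio stayed between 0.733 and 0.744 under the 8 changes of cells or averaging that were tried.

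Among the 90 cells of principal 14 with at least 1000 UMIs, *Akr1b7* ran from 52623 UPM through a median of 73859 to 101000 UPM. The range from lowest to highest was narrower than in the other populations, which held more cells. Their medians were 34918 in principal 12, 50430 in principal 13 and 94273 in principal 15. The quartiles of principal 14, 63604 and 81573 UPM, were about as far apart as those of principal 12, 26112 and 43658. In principal 13 (40705.5 and 60724.3) and principal 15 (87599 and 110844) they were further apart. Of the deep cells of principal 12, 13.2% lay inside the range of principal 14 and 86.8% below it. Of those of principal 13, 41.2% lay inside it and 57.6% below it. Of those of principal 15, 60.4% lay inside it, 39.6% above it and 0 below it. Single cells of the populations therefore overlapped on this gene, and *Akr1b7* alone did not separate them.

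**Figure D1:**
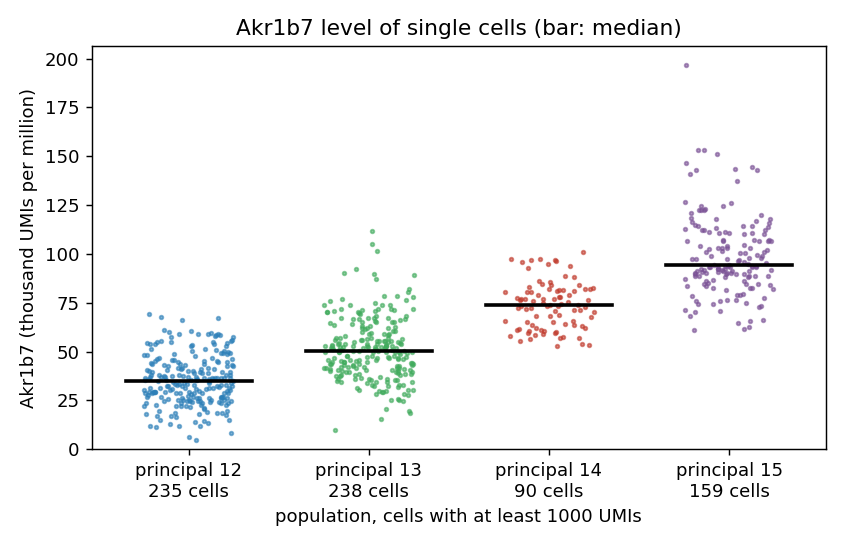
Each point is 1 cell with at least 1000 UMIs, placed by population on the x axis and by its *Akr1b7* level on the y axis in units of 1000 UPM, with a bar at the median. The 90 cells of principal 14 lie between 52623 and 101000 UPM, within the span covered by cells of principal 13 and overlapping with principal 15.

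The remaining vas deferens principal genes did not all follow the order of *Akr1b7*. Of the 15 genes, principal 14 had the highest level for 1 and the lowest for 2. None of the 15 was at least 2-fold higher or lower than in each of the other 3 populations. Over all genes with enough UMIs, only 0.663% were that much higher and 0.415% that much lower, so 0 calls in a short list is near that share. The median log2 ratio of principal 14 to the other 3 pooled was 0.01 over the 15 genes, beside 0.04 over the 5422 genes with at least 80 UMIs in the 4 populations. Principal 14 was the highest of the 4 for 27.6% of those 5422 genes and the lowest for 18.4%. The same shares over all genes stand beside the list counts below.

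Among the genes with a graded level, *Ptgr1*, which encodes a reductase that inactivates prostaglandins and leukotrienes, stood at 1043 UPM in principal 14 (953 to 1139). Its level was 343 in principal 12, 656 in principal 13 and 1308 in principal 15. The order of the 4 populations was that of *Akr1b7*, and the intervals of the 4 levels did not overlap. *Cited1*, which encodes a transcriptional coregulator, followed the same order, with 1928 UPM in principal 14 against 1277, 1606 and 2268 in principal 12, 13 and 15.

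The crystallin genes *Crygb* and *Crygc*, which lie close together on chromosome 1 and encode structural proteins best known from the lens, were also second to principal 15. *Crygc* was at 2090 UPM in principal 14 (1962 to 2224), 1762 in principal 12, 1733 in principal 13 and 3584 in principal 15. *Crygb* was at 238 UPM in principal 14 (196 to 286) against 165 in each of principal 12 and 13 and 349 in principal 15. After thinning, *Crygc* was found in 62.2% of cells of principal 14 and in 74.8% of those of principal 15. The 2 genes are close paralogs, so reads from 1 may have been counted for the other.

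Other genes of the list lay near the same level in all 4 populations. *Aqp2*, a water channel, was at 2872 UPM in principal 14 (2721 to 3028) and between 2685 and 3186 in the other 3. *Plac8* was at 4039 UPM (3860 to 4224) and between 4167 and 4490 elsewhere. *Fxyd4*, a regulator of the sodium pump, was at 2848 UPM (2699 to 3004) against 2923 to 3443. For *Plac8* and *Fxyd4* principal 14 was the lowest of the 4, with an interval that overlapped that of the population next to it in each case. *Abcg2* was at 4155 UPM in principal 14 (3973 to 4342), above the 2879 of principal 12 and below the 4915 of principal 15, and it did not differ from the 4222 of principal 13 beyond counting error.

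*Prlr*, which encodes the prolactin receptor, had its highest level in principal 14, at 438 UPM (381 to 502) against 390 in principal 12, 418 in principal 13 and 322 in principal 15. The interval of principal 14 included the levels of principal 12 and 13. After thinning, *Prlr* was found in 22.2% of cells of principal 14 (14.1 to 32.2). The shares in principal 12, 13 and 15 were higher, at 23.4%, 29.4% and 26.4%, but lay inside that interval.

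**Figure D2:**
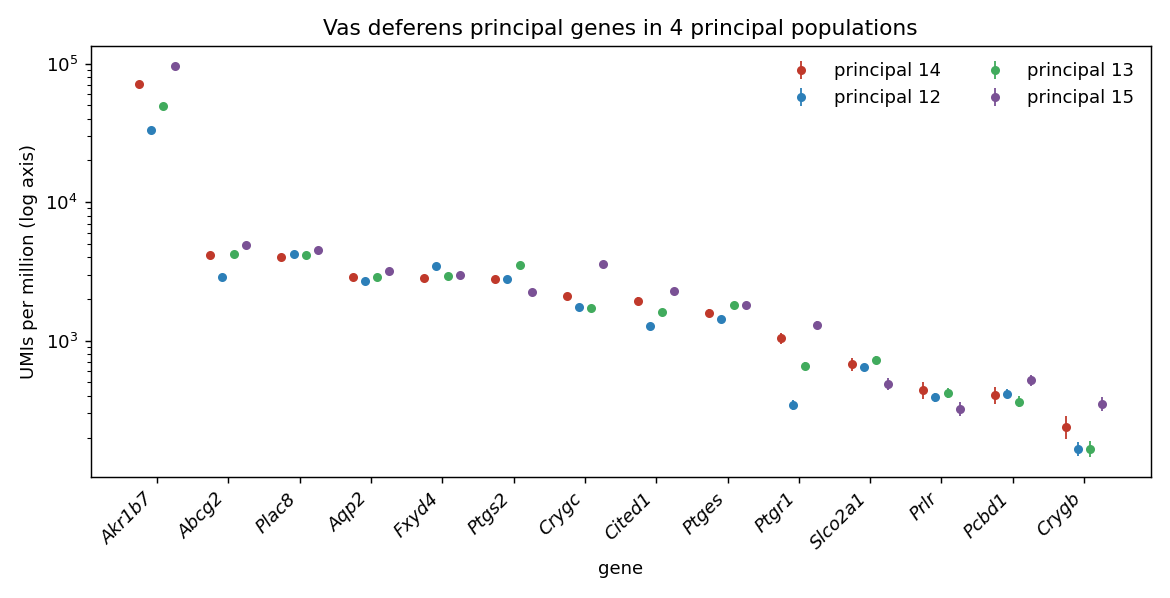
Levels of 14 of the vas deferens principal genes (x axis) in the 4 populations, in UPM on a log axis, with 95% Poisson intervals for counting error. *Akr1b7*, *Ptgr1* and *Cited1* run in the order principal 12, 13, 14 and 15, while *Aqp2* and *Plac8* lie close together in the 4 populations.

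The prostaglandin genes, 15 in the list and 9 with at least 80 UMIs over the 4 populations, made up 0.771% of UMIs in principal 14 (0.747 to 0.797), against 0.644%, 0.826% and 0.809% in principal 12, 13 and 15. None was at least 2-fold higher or lower than in each of the other 3, beside 0.663% higher and 0.415% lower of all genes tested. *Ptgs2*, the inducible cyclooxygenase, was at 2771 UPM in principal 14 (2623 to 2924), equal within counting error to the 2786 of principal 12, below the 3523 of principal 13 and above the 2235 of principal 15. *Ptges*, a terminal prostaglandin E synthase, was at 1589 UPM (1477 to 1706), between the 1429 of principal 12 and the 1820 of principal 13. *Hpgd*, which encodes the dehydrogenase that starts prostaglandin breakdown, was at 992 UPM (905 to 1086) against 617, 829 and 1593. Of these 3 genes, only *Hpgd* followed the order of *Akr1b7*. Of the 9 genes, principal 14 had the highest level for 2 and the lowest for 0, beside 27.6% and 18.4% of all genes with at least 80 UMIs.

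Of 13 aldo-keto reductase genes, *Akr1b7* supplied 33649 of 34243 UMIs in principal 14. *Akr1cl* was at 356 UPM in principal 14 against 334, 317 and 528 in principal 12, 13 and 15. *Akr1b10* was at 88.5 UPM against 47.98, 68.7 and 114. Of the 7 members with at least 80 UMIs over the 4 populations, *Akr7a5* was the 1 with its highest level in principal 14, at 301 UPM against 179, 206 and 231. *Akr1b8*, with only 5 UMIs there, was at 10.5 UPM against 3.47, 4.29 and 9.73. The common aldehyde reductase gene *Akr1a1* was lowest there, at 415 UPM against 434 to 549. Over all genes with at least 80 UMIs, principal 14 was the highest for 27.6% and the lowest for 18.4%. No member was called higher or lower than in each of the other 3. Of all genes tested, 0.663% were called higher and 0.415% lower, so 0 calls in this list is near that share.

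After *Akr1b7*, the genes with the highest levels in principal 14 were those of secreted and surface proteins that are known to reach sperm. *Crisp1*, a cysteine-rich secretory protein, was at 26831 UPM (26367 to 27301), above the 20649 of principal 12 and below the 38810 of principal 13 and the 34390 of principal 15. *Spink8*, a Kazal-type protease inhibitor, was at 18431 UPM (18047 to 18821) against 18351, 30012 and 27984. The intervals of principal 12 and 14 overlapped for *Spink8*. *Cd52*, a small glycoprotein anchored to the membrane by lipid, was at 17367 UPM, the lowest of the 4, the others running from 20378 to 21034.

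The metallothionein genes *Mt1* and *Mt2*, whose products bind zinc and copper, ran against the order of *Akr1b7*. *Mt1* was at 15494 UPM in principal 14 against 25677, 17628 and 11211 in principal 12, 13 and 15. *Mt2* was at 8071 UPM against 13796, 9256 and 5389. The other genes among the 10 with the highest level were *Crip1*, *Tmsb4x*, *Rpl41* and *Rps26*, each within 1.5-fold of its level in each of the other 3 populations.

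A list of 18 epididymal principal genes made up 4.63% of UMIs in principal 14 (4.57 to 4.69), against 4.09%, 7.13% and 6.34% in principal 12, 13 and 15. *Crisp1* and *Spink8* carried nearly all of it, and the study's text names *Crisp1* but not *Spink8*. Of the 7 members with at least 80 UMIs over the 4 populations, 0 lay above the other 3 pooled and principal 14 was the lowest of the 4 for 4. Over all 5422 genes with that many UMIs, 54.4% lay above the pool and principal 14 was the lowest for 18.4%. The median log2 ratio of the 7 was -1.17. *Lcn2*, a lipocalin gene with fewer UMIs than that limit, was the 1 member called higher by the rule of size given below, at 44.2 UPM against 8.09, 13.6 and 8.52, with 17 of its 21 UMIs from 1 cell. This list is a selection made for this report, in part from genes that the study names from these same cells. Its values depend on that selection and are not independent of the cells.

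Of the antimicrobial and luminal protein genes of this list, *Defb43*, *Defb2* and *Gpx3* were lower in principal 14 than in principal 12 and 13 and near the level of principal 15. *Defb43*, a beta-defensin gene, was at 723 UPM in principal 14 (648 to 803), 1341 in principal 12, 1450 in principal 13 and 761 in principal 15. *Defb2* was at 88.5 UPM (63.8 to 120) against 208, 322 and 57.2. *Gpx3*, a secreted glutathione peroxidase, was at 84.3 UPM (60.2 to 115) against 189, 253 and 86.4. For each of the 3 genes the counting intervals of principal 14 and 15 overlapped. *Wfdc10*, of the whey acidic protein family, was at 27.4 UPM (14.6 to 46.8) from 13 UMIs, against 122, 380 and 52.3. It was at 0.523 times the level of principal 15 (0.258 to 0.992), just short of the 2-fold rule. *Wfdc10* did meet the rule for lower genes without first-round cluster 21 and the 1 muscle-rich cell described below, at 26.6 UPM against 53.7 in principal 15, and also without each gene's highest cell. After thinning, *Defb43* was found in 33.3% of cells of principal 14 and 37.1% of those of principal 15, but in 51.1% and 49.2% of those of principal 12 and 13, with 2.86% in muscle.

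By the rule of size, 22 of 3319 genes with at least 20 UMIs in principal 14 were at least 2-fold higher there than in each of the other 3 populations, or 0.663%. A count of 0 in another population was raised to a floor of 3 UMIs. Of the 22 genes, 10 belong to a list of 17 smooth muscle markers, and 16 were over 10 times higher in 1 or both of the muscle populations than in principal 14. *Tagln*, encoding the actin-binding protein transgelin, was at 238 UPM (196 to 286) against 23.7, 35.8 and 43.8 in principal 12, 13 and 15, and 5692 in the larger muscle population. *Csrp1*, a LIM-domain protein of muscle, was at 114 UPM (85.5 to 148) against 22.5, 19.3 and 12.2. These were the 2 genes that were at least 4-fold higher. *Mylk*, the myosin light chain kinase, was at 470 UPM (410 to 536) against 73.4, 162 and 106, and *Myh11*, the smooth muscle myosin heavy chain, at 96.9 UPM (71.0 to 129) against 12.7, 25.8 and 13.4.

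The other genes among the 15 with the largest lower bound of their ratio were *Tpm1*, *Pcp4*, *Myl9*, *Tpm2*, *Actg2*, *Cnn1*, *Acta1*, *Cald1*, *Tnnc2*, *2810417H13Rik* and *Lcn2*. All but the last pair encode proteins of the contractile apparatus or its calmodulin control. *2810417H13Rik*, the PCNA-associated factor gene, was at 46.4 UPM (29.0 to 70.2) from 22 UMIs in 5 cells. *Lcn2* is described above.

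The muscle signal was unevenly spread over the cells of principal 14. The 17 smooth muscle markers made up 0.296% of its UMIs (0.280 to 0.311), against 0.0391%, 0.107% and 0.0658% in principal 12, 13 and 15 and 12.3% and 14.1% in the 2 muscle populations. Of the 1403 UMIs, 794 (56.6%) came from 1 cell with 14644 UMIs and 3653 genes, in which the markers made up 5.42% of UMIs. The next cell held 108, and 69 of the 139 cells held none. In that 1 cell *Akr1b7* was at 56952 UPM, inside the range of the other cells, and a simulation-based doublet caller gave it a doublet call. It supplied 91 of the 113 *Tagln* UMIs and 36 of the 46 *Myh11* UMIs. Without it, 6 genes were called higher in place of 22, namely *2810417H13Rik*, *Csrp1*, *Lcn2*, *Nr2f2*, *Pttg1* and *Terf2ip*, all 6 of them among the 22, and none was on the list of smooth muscle markers. Without the called doublets, 3 were called, *2810417H13Rik*, *Pttg1* and *Terf2ip*. 

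A further share of the muscle UMIs lay in cells from 1 of the first-round clusters. The deposited annotation gives the cluster of each cell before re-clustering, and principal 14 drew 83 cells from cluster 2, 27 from cluster 17 and 29 from cluster 21. The smooth muscle markers made up 0.923% of UMIs in the cells from cluster 21 (0.838 to 1.01), 0.0246% in those from cluster 17 (0.0171 to 0.0344) and, without the 1 cell above, 0.0537% in those from cluster 2 (0.0454 to 0.0630). Fibroblast markers, led by *Dcn*, which encodes decorin, made up 0.391% in the cells from cluster 21 and 0.00362% in those from cluster 17. In those from cluster 2, again without the 1 cell, they made up 0.00798%. *Dcn* itself was at 1232 UPM in the cells from cluster 21, 14.5 in those from cluster 17 and 36.3 in those from cluster 2 without the 1 cell. Of the 13 cells of principal 14 called as doublets, 11 were among the 29 from cluster 21. *Akr1b7* nonetheless stood at 70549 UPM in them (68150 to 73011), beside 70071 and 72744 in the cells from cluster 2 and 17.

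Cells of cluster 21 were also found in the other populations, 37 in principal 13, 12 in principal 15 and 1 in principal 12, with smooth muscle shares of 1.85% in principal 13 and 0.374% in principal 15. Over all 79 cells of the cluster the caller marked 26. In principal 14 the caller marked 9.35% of cells (5.07 to 15.5), against 2.31%, 4% and 0.904% in principal 12, 13 and 15. With cluster 21 and the 1 cell left out of all 4 populations, 109 cells of principal 14 remained, and their smooth muscle share fell to 0.0440%, which was 0.761 times the highest of the other 3 (0.637 to 0.905). Where the muscle and fibroblast UMIs of these cells came from was not tested.

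**Figure D3:**
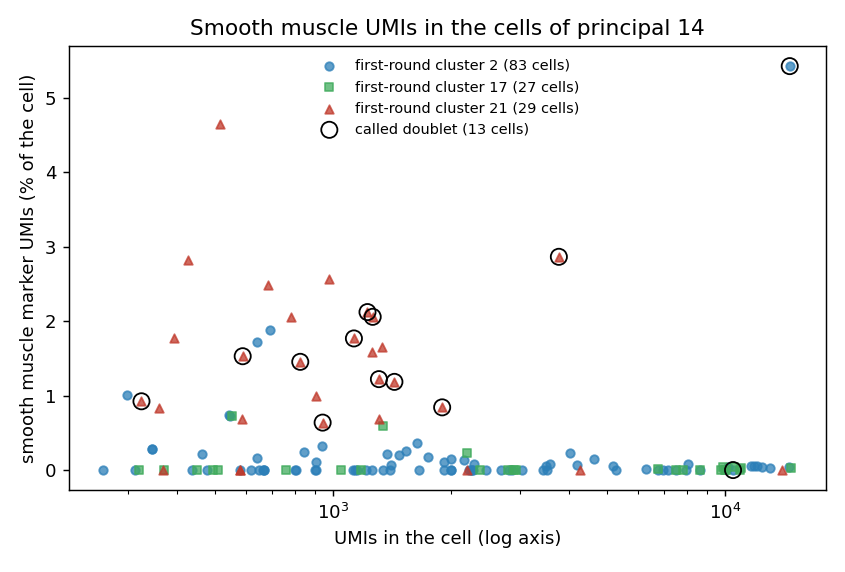
Each point is 1 of the 139 cells of principal 14, with its total UMIs on a log x axis and the share of those UMIs that came from 17 smooth muscle markers on the y axis, in percent. The cell with 14644 UMIs stands at 5.42%, and 16 of the 20 cells above 1% came from first-round cluster 21. Rings mark the 13 cells called as doublets.

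Markers of other cell types, those of fibroblasts apart, had few UMIs. The 13 endothelial markers had 6 UMIs in principal 14, and the 5 Schwann cell markers and the 2 mesothelial and 2 sperm markers that were measured had 0. The immune markers other than *Cd52*, 16 in number, had 9 UMIs (19.0 UPM against 47473 in macrophages), with at most 1 in any cell. Basal cell markers made up 0.0154% (0.0121 to 0.0193) against 0.00706% to 0.0106% in the other 3, and among them *Krt14* had 19 UMIs, 8 of them in 1 cell. Clear cell markers had 19 UMIs, a share of 0.00400%. The 24 fibroblast markers made up 0.0453% (0.0394 to 0.0518) against 0.00775%, 0.0299% and 0.00937%, the highest share of the 4, and 39 of the 139 cells held at least 1 of their UMIs. *Mgp* and *Dcn*, at 133 and 145 UPM, were 1.64 and 1.63 times as high as in principal 13 and fell short of the 2-fold rule. Without cluster 21 and the 1 cell, *Mgp* was at 9.67 UPM from 4 UMIs in principal 14 and at 8.86 to 19.98 UPM in the other 3. *Dcn*, from 12 UMIs, was then at 29.0 UPM and still highest in principal 14, against 25.4, 8.12 and 18.7 in principal 12, 13 and 15.

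**Figure D4:**
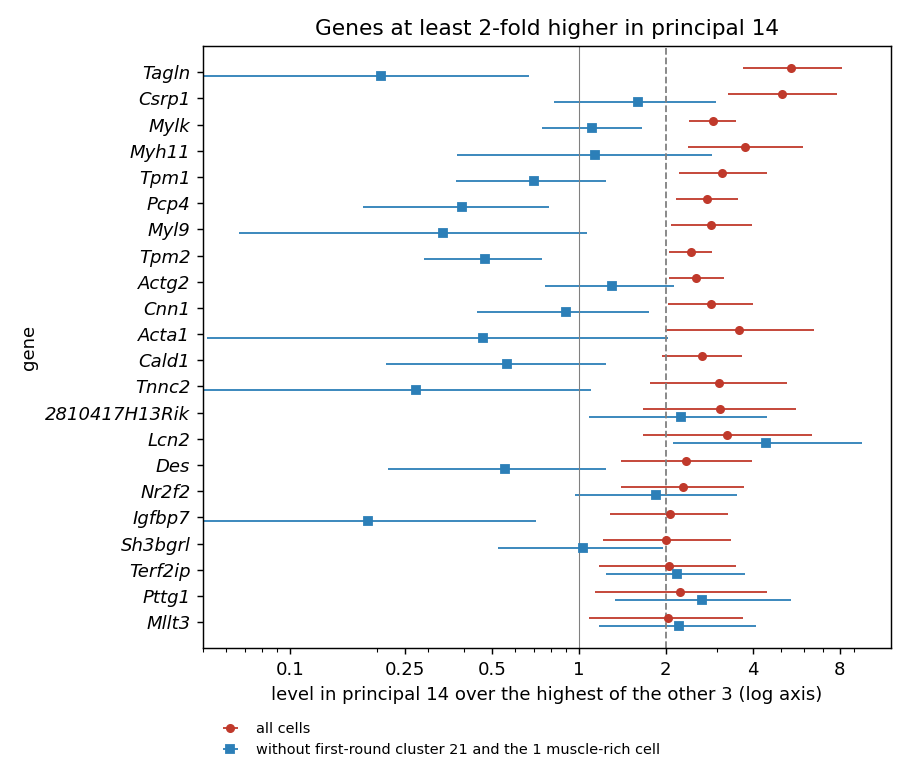
Ratio of the level in principal 14 to the highest of the other 3 populations for the 22 genes at least 2-fold higher, on a log axis, with 95% intervals for counting error, for all cells (circles) and without first-round cluster 21 and the 1 muscle-rich cell (squares). *Tagln* moves from 5.43 to 0.207 and *Mylk* from 2.91 to 1.11, while *Terf2ip* and *Pttg1* stay above the dashed line at 2, as do 3 genes that then have fewer than 20 UMIs. Intervals that reach below the left edge are cut there.

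With cluster 21 and that cell left out, 6 genes were at least 2-fold higher in principal 14 than in each of the other 3, of which *Pttg1* and *Terf2ip* were among the original 22. These 6 were singled out after their values were seen. *Akap12*, a scaffold protein for protein kinase A, was at 143 UPM from 59 UMIs in 14 cells, against 62.7 to 70.5 UPM. Of these 59 UMIs, 18 came from 1 cell. *Slc2a1*, the glucose transporter GLUT1, was at 55.6 UPM from 23 UMIs in 11 cells, of which 11 UMIs came from 1 cell. *Pttg1*, encoding securin, was at 53.2 UPM from 22 UMIs in 9 cells, of which 9 UMIs came from 1 cell. *Ccdc55*, *Eif2b2* and *Terf2ip* had 37, 23 and 24 UMIs. With each gene's single highest cell left out of every population, only *Csrp1* and *Nr2f2* of the 22 still met the rule. With levels taken as a mean over cells, 26 genes met it, of which *Csrp1* and *Terf2ip* were among the 22 and 0 were smooth muscle markers. No gene was thus called higher in principal 14 under every choice of cells, and the number of genes called higher depended on a few cells.

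Of the 10 proliferation genes, 91 UMIs were found in principal 14, a share of 0.0192% (0.0154 to 0.0235) against 0.00682%, 0.00923% and 0.00657% in principal 12, 13 and 15. Of these UMIs, 34.1% came from 1 cell and 70.3% from 4 cells. The first of the 4 held 7 UMIs of *Mki67*, 7 of *Top2a* and 8 of *2810417H13Rik*, with 539 of *Akr1b7*, and the second held 10 of *Top2a* and 393 of *Akr1b7*. Neither was called as a doublet. *Top2a*, the topoisomerase of dividing cells, had 19 UMIs in 4 cells of principal 14, or 40.0 UPM (24.1 to 62.5), against 1.73, 5.72 and 2.43 UPM in principal 12, 13 and 15. It missed the minimum of 20 UMIs by 1. After thinning, a proliferation UMI was found in 10% of cells of principal 14 (4.68 to 18.1) and in 5.96% to 8.40% of those of the other 3, so at the level of cells no difference was detectable.

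In the other direction, 18 of 4342 genes with at least 20 UMIs in each of the other 3 populations were at least 2-fold lower in principal 14 than in each of them, or 0.415%. Most had few UMIs there, from 3 to 22, and for only 3 of the 18 did the upper bound of the ratio to the lowest of the other 3 stay under 1. Those 3 were *Cxcl2*, *Eef2k* and *Cartpt*. The next by upper bound were *Ddah2*, *Tmem216*, *S100a8*, *Cep164*, *Flywch2*, *C87436* and *Vkorc1l1*, each with 4 to 8 UMIs in principal 14. *Cartpt*, *Lias*, *Tdrd3*, *Tmem216* and *Vkorc1l1*, each with 3 to 6 UMIs there, stayed lower by the rule without called doublets and without the muscle-rich cell. They also did so without cluster 21 and that cell, and without each gene's highest cell. After thinning each cell to 1000 UMIs, 0 of the 18 were still called. Thinning also left only 1044 genes, in place of 4342, with enough UMIs to be called lower.

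*Cxcl2*, a chemokine that draws neutrophils, was at 46.4 UPM in principal 14 (29.0 to 70.2) from 22 UMIs in 12 cells, against 372 UPM in principal 12, 254 in principal 13 and 192 in principal 15. In principal 15, however, 66.5% of its UMIs came from 1 cell. With each gene's highest cell left out of every population, *Cxcl2* no longer met the rule. *Cxcl1*, a related chemokine, was at 169 UPM in principal 14 (134 to 210) against 721, 391 and 197, and its interval included the level of principal 15. *Csf3*, the granulocyte colony-stimulating factor gene, had 3 UMIs in principal 14 and 84 and 43 in principal 12 and 13, or 6.32 against 48.6 and 30.8 UPM, and was at 7.30 UPM in principal 15. *Cxcl1* and *Cxcl2* are among the 10 genes that the study names for secretory stromal cells. *Cxcl2* was at 9173 UPM in those cells and at 21609 UPM in macrophages. The 10 genes made up 0.0390% of UMIs in principal 14 (0.0336 to 0.0450), against 0.119%, 0.0806% and 0.0481%. *Ccl2*, a chemokine of the same list that draws monocytes, went the other way and supplied 57 of the 185 UMIs. It was at 120 UPM in principal 14 (91.0 to 156) against 15.6, 92.3 and 31.6, and at 31.4 UPM from 13 UMIs against 10.4, 19.2 and 18.7 without cluster 21 and the 1 cell.

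*Cartpt*, which encodes a neuropeptide precursor, had 4 UMIs in 4 cells of principal 14, or 8.43 UPM (2.30 to 21.6), against 23.7, 114 and 733 UPM in principal 12, 13 and 15. Of the 602 UMIs in principal 15, 556 came from 1 cell, and of the 160 in principal 13, 93 came from 1 cell. After thinning, it was found in 0 of 90 cells of principal 14, which allows a share of up to 3.33% taking 3 cells as the limit and 4.02% by the Clopper-Pearson interval, and in 2.55%, 4.62% and 3.77% of cells of principal 12, 13 and 15. At this depth no difference in the share of cells was detectable. *Eef2k*, a kinase of translation elongation factor 2, was at 21.1 UPM from 10 UMIs against 52.0, 65.1 and 47.5 UPM. Its UMIs lay in 9 cells of principal 14 (6.47%, without thinning) and in 19.4%, 16.75% and 9.34% of cells of principal 12, 13 and 15. It still met the rule without called doublets and without each gene's highest cell. Without cluster 21 and the 1 muscle-rich cell, at 24.2 UPM against 46.2 in principal 15, it did not.

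Compared with each population in turn, principal 14 differed by the 2-fold rule in the fewest genes from principal 13. Of 3319 genes, 38 were at least 2-fold higher than in principal 13 (1.14%) and, of 3300, 40 were lower (1.21%). Against principal 12, 137 were higher (4.13%) and 43 of 3047 lower (1.41%), and against principal 15, 141 were higher (4.25%) and 13 of 2928 lower (0.444%). For the lower genes, the level in the other population had to correspond to at least 20 UMIs at the depth of principal 14. The median absolute log2 ratio was 0.32 against principal 12, 0.22 against principal 13 and 0.25 against principal 15. Depth differed between these populations, and its part in these counts was not tested.

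Among the genes lower than in principal 13 were *Wfdc10*, *Defb11*, *Cuzd1* and *Spink11*, which were picked after their values were seen. *Defb11* had 3 UMIs in principal 14, or 6.32 UPM (1.30 to 18.5), against 50.3 in principal 12, 55.8 in principal 13 and 8.52 in principal 15. *Cuzd1*, encoding a secreted protein with CUB and zona pellucida-like domains, was at 23.2 UPM against 122 in principal 13, and at 17.3 and 36.5 in principal 12 and 15. *Spink11*, a further Kazal-type inhibitor, was at 46.4 UPM against 103, 162 and 58.4. Principal 14 lay nearest to principal 15 for *Wfdc10*, *Defb11* and *Spink11*, and nearest to principal 12 for *Cuzd1*, of which 9 of the 11 UMIs came from 1 cell.

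The 25 immediate early and heat shock genes made up 0.829% of UMIs in principal 14 (0.803 to 0.855), the same within counting error as the 0.830% of principal 15 and above the 0.560% and 0.699% of principal 12 and 13. These genes are known to respond within minutes to stress, tissue dissociation included. None was called higher or lower than in each of the other 3, which is near the 0.663% and 0.415% of all genes tested. *Fos* was at 518 UPM (456 to 587) against 179, 303 and 661, and *Egr1* at 343 UPM (293 to 400) against 117, 194 and 340. *Klf2* was at 179 UPM (143 to 221) against 37.0, 127 and 238. Inside principal 14, the share was 1.203% in the 27 cells from first-round cluster 17, 0.657% in those from cluster 2 and 0.791% in those from cluster 21. The part of stress during preparation in these levels was not tested.

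The 81 ribosomal protein genes made up 13.6% of UMIs (13.5 to 13.7) in principal 14, against 18.3% in principal 12, 12.9% in principal 13 and 12.5% in principal 15. Of the 79 with at least 80 UMIs over the 4 populations, 78 were lower than in principal 12, with a median log2 ratio of -0.43, whereas 15 were lower than in principal 13 and 7 than in principal 15. Median depth was 2344 UMIs per cell in principal 12 and 933 to 1540 in the other 3, and its part in the difference was not tested. The 81 nuclear genes of the respiratory chain and ATP synthase made up 4.89% of UMIs, between the 4.57% of principal 13 and the 5.13% of principal 15.

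The ion and water transport genes, 21 in the list, made up 0.630% (0.608 to 0.653) against 0.668%, 0.636% and 0.667% in principal 12, 13 and 15. The 36 *Hox* genes made up 0.124% against 0.115% to 0.125%. Of the 11 *Hox* genes with at least 80 UMIs over the 4 populations, principal 14 had the highest level for 5, the lowest for 3, and none was called. Over all 5422 genes with that many UMIs, it was the highest for 27.6% and the lowest for 18.4%. *Hoxb6* was at 280 UPM against 230, 254 and 280. *Hoxd4* was at 131 UPM against 71.1, 128 and 102. The 20 integrin adhesion genes made up 0.101% against 0.0784%, 0.0913% and 0.0651%, with 0 called. Of their 478 UMIs in principal 14, 11.3% came from 1 cell, and they made up 1.88% in the larger muscle population. Among them *Itgb1* was highest in principal 14, at 223 UPM (183 to 270) against 143 to 160, with all cells included. The basement membrane and mesenchymal transition lists likewise had 0 genes called, at 148 and 15 UMIs. Of all genes tested, 0.663% were called higher and 0.415% lower, so 0 calls in each of these lists is near that share.

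**Figure D5:**
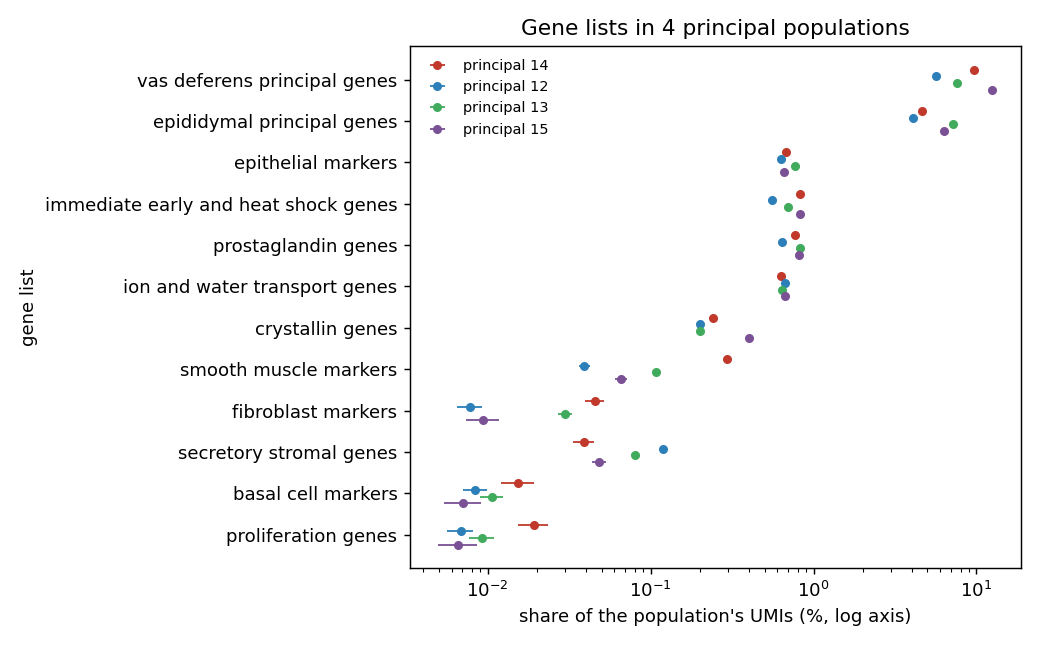
Share of each population's UMIs that came from each of 12 gene lists, in percent on a log axis, with 95% Clopper-Pearson intervals for counting error. Principal 14 stands between principal 13 and 15 for the vas deferens principal genes (9.66%) and highest of the 4 for the smooth muscle markers (0.296%), the latter with all cells included.

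Cells of principal 14 held 260 to 14763 UMIs with a median of 1474 and a median of 703 genes, and 474637 UMIs in all. Principal 12, 13 and 15 held 1730049, 1397510 and 821784 UMIs. A gene with 0 UMIs in principal 14 may thus have had up to 6.32 UPM, taking 3 UMIs as the limit. The ambient RNA removed by the authors came to 2.51% of UMIs in principal 14 and 1.71% to 3.46% in the other 3. Of the cell barcodes, 43 were found in more than 1 library, 0 of them in principal 14, 5 in principal 12, 3 in principal 13 and 1 in principal 15.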

How the data were processed

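Single-cell 3′ libraries (10x v2 chemistry) were made from pooled tissue, 1 per region. Per the study's methods and the submitters' processing notes, reads were aligned to mm10 with HISAT2 2.0.4, UMIs were counted per RefSeq gene with ESAT, and ambient RNA was removed with SoupX. The deposited values used here are the resulting whole UMI counts of 16892 genes in 8880 cells. The deposited cell table gives each cell's library, first-round cluster and final population, used without re-clustering, and the UMI counts before ambient removal.

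Counts were summed per population. Levels are UPM with exact Poisson intervals, ratios have exact conditional binomial intervals and shares Clopper-Pearson intervals, all 95%. Shares of cells were counted after thinning to 1000 UMIs with a fixed seed. Doublets were called per library with scrublet in scanpy 1.11.5 at 0.8% per 1000 cells and were kept. The population numbers were matched to the paper by cell numbers.

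Genes named are the 15 called higher with the largest lower bound of the ratio to the highest of the other 3, the 10 called lower with the smallest upper bound to the lowest, the 10 of highest level, the vas deferens principal genes of the study, and defining or highest members of the lists. The population, its rule and all lists were chosen with earlier results of these data known. Malat1, Neat1 and Meg3 were listed, but 0 of them had a row in the matrix used here, and 0 gene names began with the mt- of mitochondrially encoded genes. Promoter windows are from RefSeq tables on GRCm38.p6, the same assembly as mm10. Alternatives were fold, UMI minimum, depth, doublets, library, averaging and the populations compared. A further 4 were added after seeing the data, leaving out single cells or first-round cluster 21. Single genes left out of the text are not reported here.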

Additional observations from a re-analysis of the deposited data

How the results depend on the processing

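No paired analysis was possible because each region was 1 library and no result came from a test. The 22 genes higher in principal 14 became 90 at 1.5-fold, 2 at 4-fold, 78 with at least 10 UMIs, 10 with at least 50 UMIs, 3 without called doublets, 0 after thinning each cell to 1000 UMIs and 47 without principal 13 in the comparison. They became 6 without the cell with the most smooth muscle UMIs, 6 without that cell and first-round cluster 21, and 2 without each gene's highest cell. As a mean over cells they became 26, of which 2 were among the 22 and 0 were smooth muscle markers. The 18 genes lower became 66, 1, 47, 1, 11 and 3 under the first 6 of these settings, 80 as a mean over cells and 114 without principal 15. They became 14 without the muscle-rich cell, 15 without first-round cluster 21, 17 without both and 20 without each gene's highest cell. Of the original 18, these settings kept 11, 9, 9 and 12, in that order, and the mean over cells kept 7. Thinning left 663 genes with enough UMIs to be called higher, in place of 3319, and 1044 to be called lower, in place of 4342.

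The ratio of the smooth muscle share in principal 14 to the highest of the other 3, 2.76 with all cells, was 3.58 in cells with at least 1000 UMIs, 1.04 without called doublets, 1.19 as a mean over cells, 1.36 after thinning, 1.24 without the muscle-rich cell, 3.94 without cluster 21 and 0.761 without both, where it turned. That of the fibroblast share, 1.51, was 1.14 after thinning, 1.12 without cluster 21 and 0.918 without both, where it turned. That of the epididymal genes, 0.649, was 0.667 in cells with at least 1000 UMIs, 0.538 as a mean over cells and 0.620 after thinning. The epithelial ratio, 0.884, was 0.834 as a mean over cells, and that of the vas deferens principal genes, 0.772, was 0.761 after thinning. The *Akr1b7* ratio stayed within its counting interval throughout. Without thinning, 50.4% of cells in place of 30% held a smooth muscle UMI and 28.1% in place of 14.4% a fibroblast UMI. The share of called doublets, 9.35%, was 12.9% at double the calling rate. Genes with few UMIs, and thus most of the genes called lower, were limited by depth, and with 1 pooled library per region the spread between animals is not known. The cause of these shifts was not tested.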
